A study of Homo sapiens with 6 samples.

Results

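The genes of mitochondrial fusion and fission were followed in colon fibroblasts after knockdown of *LTBP2*. The family held 10 genes, taken by symbol from a table of 60663 genes, and all 10 were among the 16920 genes with enough counts to be tested. The family was chosen by the lower count of *MFN2* in the siLTBP2 libraries than in the siNT libraries, so the values of *MFN2* are given as a description, without a test. CCD18Co, an established line of human colon fibroblasts, was transfected for 6 h using lipofectamine 2000. The siRNAs were either against *LTBP2* (siLTBP2) or non-targeting (siNT). *LTBP2* encodes an extracellular matrix protein of the family of latent TGF-beta binding proteins. RNA was collected at 48 h, and each group had 3 libraries of total RNA depleted of ribosomal RNA. There was 1 cell line and 1 siRNA reagent against *LTBP2*. Nothing in the labels says that the 3 libraries of a group came from separate cultures, so the p-values measure only the spread between these libraries, which may be technical.

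Mitochondria form a network that is constantly joined and divided. Outer membranes are joined by the mitofusins, the GTPases encoded by *MFN1* and *MFN2*, and inner membranes by the dynamin-like GTPase OPA1. The proteases OMA1 and YME1L1 cut OPA1 and thereby set the balance of its long and short forms. Division is carried out by the GTPase encoded by *DNM1L*, which is drawn from the cytosol to the outer membrane by the adaptors FIS1, MFF, MIEF1 and MIEF2. MFN2 also sits at contacts between mitochondria and the endoplasmic reticulum, and inherited variants of its gene cause a form of Charcot-Marie-Tooth neuropathy.

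The libraries held between 44663424 and 53576899 counts on genes. *LTBP2* was at 25.0, 23.1 and 21.2 CPM (counts scaled to 1000000 per library, normalized by TMM) in the siNT libraries and at 6.49, 8.61 and 6.00 CPM in the siLTBP2 libraries, which left 30.4% of its siNT level (log2 fold change -1.72, SE 0.15, adjusted p = 6.6e-05, edgeR's quasi-likelihood test). All 12 fibroblast markers were expressed, of which 1 was called, *PDGFRB*. It fell from 168 ± 9.69 to 110 ± 13.3 CPM (SD, n = 3), a log2 fold change of -0.60 (adjusted p = 0.0025, same test). The number of these markers called depended on the fit. It was 1 to 3 with 1 library left out, and 1 to 12 over fits with another test, scaling or filter or a replicate block. Of 8 epithelial markers only *KRT8* and *KRT18* were tested, *KRT20* was at 0 and *EPCAM* never exceeded 2 counts, while the summed level of the tested markers was 40.1 to 52.4 CPM in siNT and 85.4 to 99.0 CPM in siLTBP2, mostly *KRT18* (log2 fold change 1.15, adjusted p = 0.00024). Of 6 endothelial markers *VWF* and *TEK* were tested and none was called, with summed levels of 67.3 to 83.4 CPM in siNT and 59.8 to 74.2 CPM in siLTBP2, and *CDH5* never exceeded 2 counts. Of 7 immune markers *CD68* and *CSF1R* were tested, *CSF1R* was called higher (0.70 CPM in siNT and 1.32 CPM in siLTBP2) but not without siNT replicate 1 or 2 or siLTBP2 replicate 2 or 3 (log2 fold change 0.75 to 0.94), and *PTPRC* never exceeded 8 counts. Of 12 proliferation genes, 7 rose and 0 fell, beside 9.76% of all tested genes called higher and 9.51% called lower. The summed level of the 12 was 1961 to 2149 CPM in siNT and 2627 to 2690 CPM in siLTBP2. The 7 became 6 without replicate 3 of either group and 4 without any other library. The part of these shifts in the results given here was not tested. In bulk RNA, fewer cells that express a gene and less RNA of it per cell cannot be told apart.

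Of the 10 genes, 2 had lower levels in siLTBP2 at an adjusted p below 0.05, *MFN2* and *MIEF2*, none was higher, and 8 were not called. Over all genes tested, 9.51% were called lower, 9.76% higher and 19.3% in either direction. A stricter threshold, more than a 2-fold difference at an adjusted p below 0.01, was passed by 2.57% of all tested genes, and *MIEF2* did not pass it. Since the family was picked for *MFN2*, nothing is read from the count against these shares. The median log2 fold change was 0.01 over the 10 genes and -0.01 over all genes tested. For the 8 genes not called, the 95% intervals of the log2 fold change reached at most -0.40 downward (*MFN1*) and 0.32 upward (*YME1L1*). A p-value that misses the threshold does not show that these genes were unchanged.

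**Figure D1:**
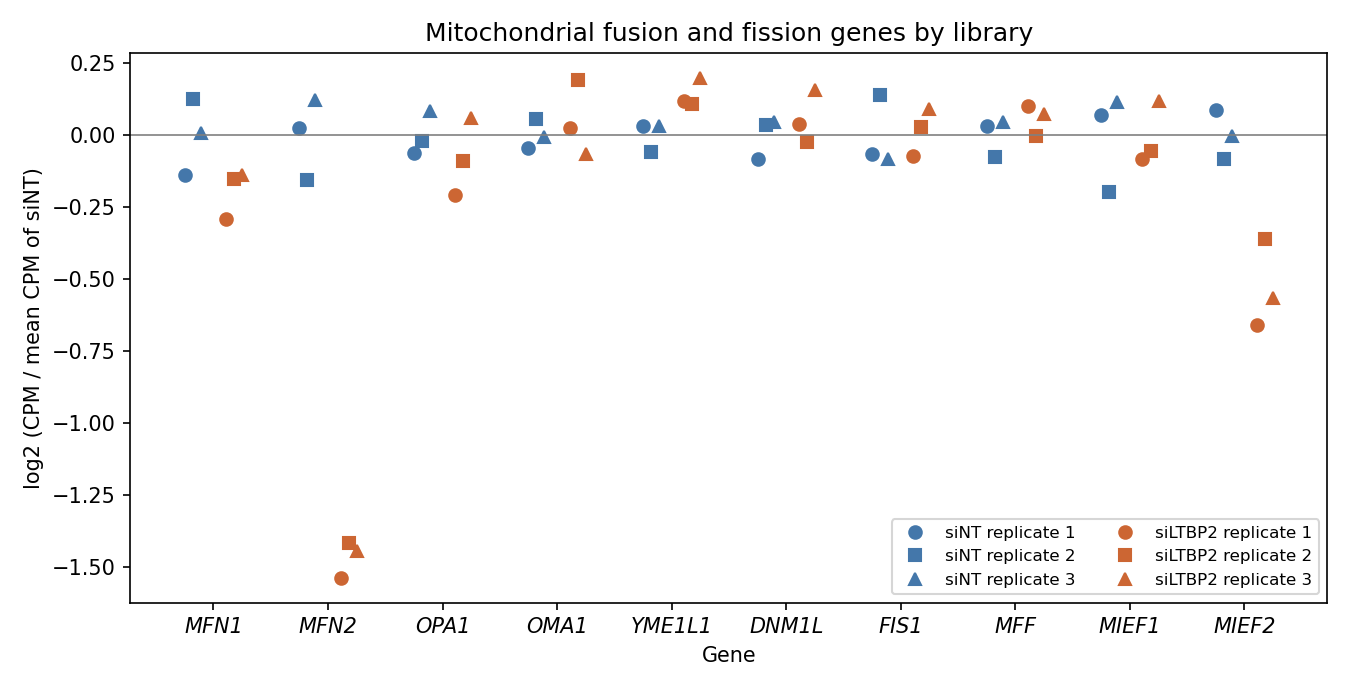
Level of each fusion and fission gene in each library, as log2 of its CPM over the mean CPM of the 3 siNT libraries (vertical axis), with siNT in blue, siLTBP2 in orange and the replicate number as the symbol. The siLTBP2 libraries of *MFN2* lie far below all other points, those of *MIEF2* lie below their own siNT libraries, and the other genes stay close to the siNT line.

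*MFN2* (ENSG00000116688) has 19 exons in its canonical transcript and encodes 757 residues, on the plus strand of GRCh38 chr1:11980181-12015211. Its level was 179, 158 and 192 CPM in the siNT libraries and 60.9, 66.2 and 65.0 CPM in the siLTBP2 libraries. The groups were far apart, and the siLTBP2 libraries differed little among themselves. The mean was 177 ± 17.0 CPM (SD, n = 3) in siNT and 64.0 ± 2.76 CPM (SD, n = 3) in siLTBP2, which is 36.3% of siNT and 2.76-fold lower. The fitted log2 fold change was -1.46 (SE 0.09), the 117th lowest of the 16920 genes. The values rest on 8289, 7815 and 10356 counts in siNT and 2654, 3129 and 3423 counts in siLTBP2. Leaving out any 1 library kept the log2 fold change between -1.54 and -1.40. No other annotated gene overlaps *MFN2*, so no neighbour shares its reads.

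*MFN2* and *MIEF2*, the 2 genes called lower, were also the only family members whose 3′ untranslated region (UTR) holds the word GCACCCA. The canonical transcript of *OPA1*, which was not called, holds it outside the 3′ UTR. The word came from an earlier search of these same libraries for words whose carriers were lower in siLTBP2, so its presence supports nothing about these genes. The sites are shown as the reference sequence of the transcribed strand (GRCh38, plus strand for each), with the word in capitals, and with the 2 sites of *PGAM5*, a phosphatase gene described further on.
MFN2, chr1:12011673-12011701: aagagaatgaaGCACCCAgtctcgtacca
MIEF2, chr17:18264800-18264828: gctggggagctGCACCCAcctcccttcca
PGAM5, first site, chr12:132721110-132721138: ccaccatgttcGCACCCAcagctgacccg
PGAM5, second site, chr12:132721199-132721227: ggatgaggaggGCACCCAggttctgttca
The word begins 118 bases after the stop codon of *MFN2*, in a 3′ UTR of 1943 bases, and 46 bases after that of *MIEF2*, in one of 1788 bases. In *PGAM5* it begins 292 and 381 bases after the stop codon. It was searched on the transcribed strand only, in canonical transcripts of GENCODE 44, and 11.8% of the 12314 tested genes whose 3′ UTR was 50 bases or longer carried it (1455 genes). Of those carriers 27.8% were called lower, against 9.35% of the 10859 genes without it. The word had been picked for lower carriers in these libraries, so this difference is built in and supports nothing. A match describes the letters of the reference and does not show that anything binds there.

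*MFN1* (ENSG00000171109, GRCh38 chr3:179347709-179394936, plus strand) encodes the other mitofusin. Its level was 61.8, 74.2 and 68.5 CPM in siNT and 55.7, 61.3 and 61.9 CPM in siLTBP2, so that the highest siLTBP2 library lay just above the lowest siNT library. The log2 fold change was -0.19 (SE 0.09, adjusted p = 0.18, edgeR's quasi-likelihood test). The mitofusins were compared within each library as the ratio of reads per kilobase of exon. *MFN2*/*MFN1* was 1.68, 1.24 and 1.63 in siNT and 0.635, 0.627 and 0.610 in siLTBP2. The ratio was thus above 1 in every siNT library and below 1 in every siLTBP2 library, and because it contains *MFN2* it is a description as well. With the length of the canonical transcript in place of the summed exons, the mean ratio was 3.09 ± 0.49 in siNT and 1.27 ± 0.03 in siLTBP2 (SD, n = 3), so which mitofusin was the more abundant in siLTBP2 depends on the length used, whereas the lower ratio does not.

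**Figure D2:**
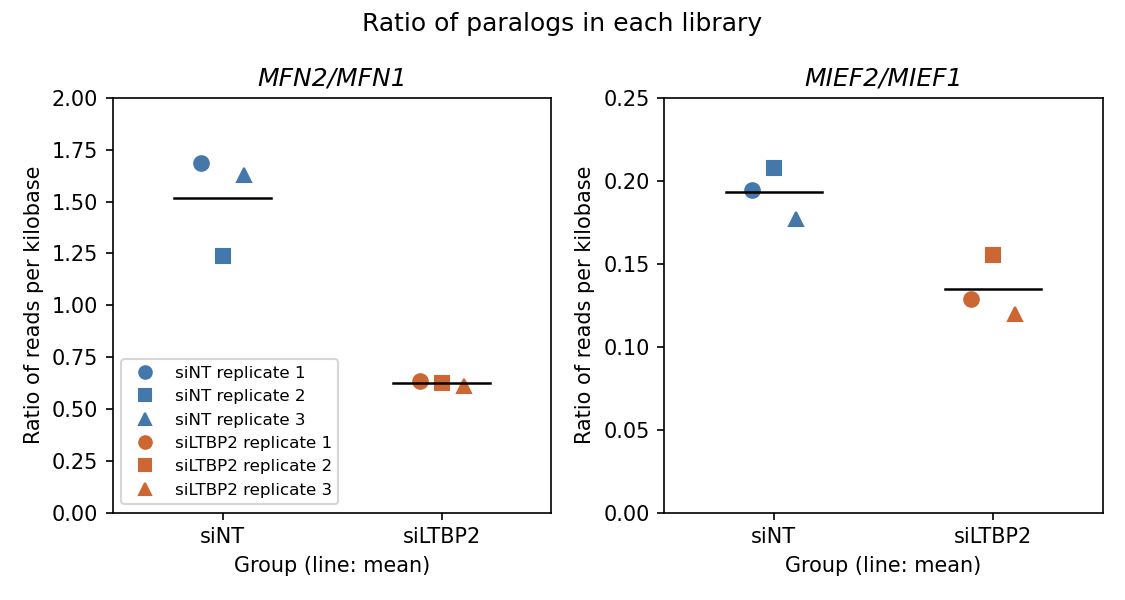
Ratio of reads per kilobase of exon between paralogs in each library (vertical axes, starting at 0), with *MFN2*/*MFN1* on the left and *MIEF2*/*MIEF1* on the right, by group, with lines at the group means. The mean *MFN2*/*MFN1* ratio was 1.52 in siNT and 0.624 in siLTBP2, and in both panels the siLTBP2 libraries lie below all siNT libraries.

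*OPA1* (ENSG00000198836, GRCh38 chr3:193593144-193697811, plus strand) carries out fusion of the inner membrane. It was at 119, 122 and 132 CPM in siNT and at 108, 117 and 130 CPM in siLTBP2, with overlapping groups and a log2 fold change of -0.08 (SE 0.09, adjusted p = 0.62, edgeR's quasi-likelihood test). The counts are per gene and do not tell its splice forms apart, nor do they show how the protein is cut.

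The proteases that cut OPA1 were not called either. *YME1L1* (ENSG00000136758, GRCh38 chr10:27110111-27155266, minus strand) encodes the protease with constant activity. It was at 219, 206 and 219 CPM in siNT and at 233, 231 and 246 CPM in siLTBP2. Every siLTBP2 library lay above every siNT library. Over all tested genes, the groups did not overlap for 37.0% counting both directions and for 18.3% counting the lower direction alone. The log2 fold change of *YME1L1*, 0.14 (SE 0.08), had an adjusted p of 0.26 in edgeR's quasi-likelihood test. *MASTL*, a mitotic kinase gene on the opposite strand, overlaps *YME1L1* and rose by 0.41 on the log2 scale (adjusted p = 0.030, same test). Whether the counting used strand is not stated in the sources used here, and whether reads of *MASTL* were counted for *YME1L1* was not tested. *OMA1* (ENSG00000162600, GRCh38 chr1:58415384-58546802, minus strand), the stress-activated protease, was far lower, with 9.56, 10.2 and 9.83 CPM in siNT and 10.0, 11.3 and 9.43 CPM in siLTBP2. Its groups overlapped, and the log2 fold change was 0.05 (SE 0.12, adjusted p = 0.80, edgeR's quasi-likelihood test).

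On the fission side, *DNM1L* (ENSG00000087470, GRCh38 chr12:32679200-32745650, plus strand), whose product constricts the organelle, was at 57.1, 62.0 and 62.4 CPM in siNT and at 62.0, 59.4 and 67.3 CPM in siLTBP2. The groups overlapped, with a log2 fold change of 0.06 (SE 0.09, adjusted p = 0.70, edgeR's quasi-likelihood test). It overlaps 7 annotated genes, among them *YARS2* on the opposite strand (log2 fold change 0.15, adjusted p = 0.33).

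The adaptors that draw this GTPase to the outer membrane differed from each other. *MIEF2* (ENSG00000177427, GRCh38 chr17:18260597-18266552, plus strand, 4 exons in the canonical transcript, 454 residues) was at 9.80, 8.71 and 9.20 CPM in siNT and at 5.85, 7.19 and 6.24 CPM in siLTBP2. All siLTBP2 libraries lay below all siNT libraries, which 18.3% of all tested genes also showed. The mean fell from 9.23 ± 0.543 to 6.43 ± 0.688 CPM (SD, n = 3), which left 69.6% of siNT (log2 fold change -0.52, SE 0.13, adjusted p = 0.019, edgeR's quasi-likelihood test). The call rested on particular libraries. Without siNT replicate 1 the log2 fold change was -0.48 with an adjusted p of 0.068, and without siLTBP2 replicate 1 it was -0.46 with an adjusted p of 0.073 (edgeR's quasi-likelihood test).

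Its paralog *MIEF1* (ENSG00000100335, GRCh38 chr22:39499432-39518132, plus strand) was at 97.5, 81.0 and 101 CPM in siNT and at 87.8, 89.4 and 101 CPM in siLTBP2, with a log2 fold change of -0.01 (SE 0.10, adjusted p = 0.98, edgeR's quasi-likelihood test). The groups overlapped. The ratio *MIEF2*/*MIEF1* per kilobase of exon was 0.194, 0.208 and 0.177 in siNT and 0.129, 0.156 and 0.120 in siLTBP2. *MIEF2* was thus the minor paralog in every library, and its share was lower in each siLTBP2 library than in any siNT library.

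*FIS1* (ENSG00000214253, GRCh38 chr7:101239458-101252316, minus strand), a small tail-anchored adaptor, was at 87.7, 101 and 86.7 CPM in siNT and at 87.3, 93.7 and 97.7 CPM in siLTBP2. *MFF* (ENSG00000168958, GRCh38 chr2:227325151-227357833, plus strand), a main receptor of the fission GTPase, was at 67.1, 62.3 and 67.8 CPM in siNT and at 70.5, 65.6 and 69.1 CPM in siLTBP2. The groups overlapped for both genes. Their log2 fold changes were 0.02 for *FIS1* (SE 0.09, adjusted p = 0.93) and 0.06 for *MFF* (SE 0.08, adjusted p = 0.68, edgeR's quasi-likelihood test). None of the 5 annotated pseudogenes of the family (*MFFP1*, *MFFP2*, *MFFP3*, *MFN1P1* and *YME1L1P1*) exceeded 7 counts in a library.

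Levels were compared between genes as RPKM, the CPM divided by the summed exon length of the gene in kilobases. In siNT, *FIS1* was highest with 51.3 ± 4.51 RPKM, followed by *YME1L1* with 29.2 ± 1.05 RPKM and *MFN2* with 17.2 ± 1.67 RPKM (SD, n = 3). *OPA1* (13.8 RPKM), *MIEF1* (12.3 RPKM), *MFN1* (11.5 RPKM) and *MFF* (10.6 RPKM) formed a middle group in which each neighbour overlapped the next over the 3 libraries. *DNM1L* (7.51 RPKM), *OMA1* (2.66 RPKM) and *MIEF2* (2.36 RPKM) followed, each apart from its neighbour. In siLTBP2 the order was the same but for *MFF* above *MFN1* and for *MFN2*, which at 6.25 ± 0.27 RPKM (SD, n = 3) was the eighth of 10, between *DNM1L* at 7.80 and *OMA1* at 2.76 RPKM. *MFN2* made up 10.9% ± 1.06 of the summed RPKM of the family in siNT and 4.20% ± 0.15 in siLTBP2 (SD, n = 3). With canonical transcript lengths, *MFN2* was again the third in siNT, at 40.1 RPKM, but the sixth in siLTBP2, so its exact place depends on the length used. The middle group depends on it as well. With canonical lengths in siNT, *MFF* was at 34.2 RPKM, well above *OPA1* at 19.4 RPKM, and *MFN1* at 13.1 RPKM came after *DNM1L* at 13.4 RPKM.

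**Figure D3:**
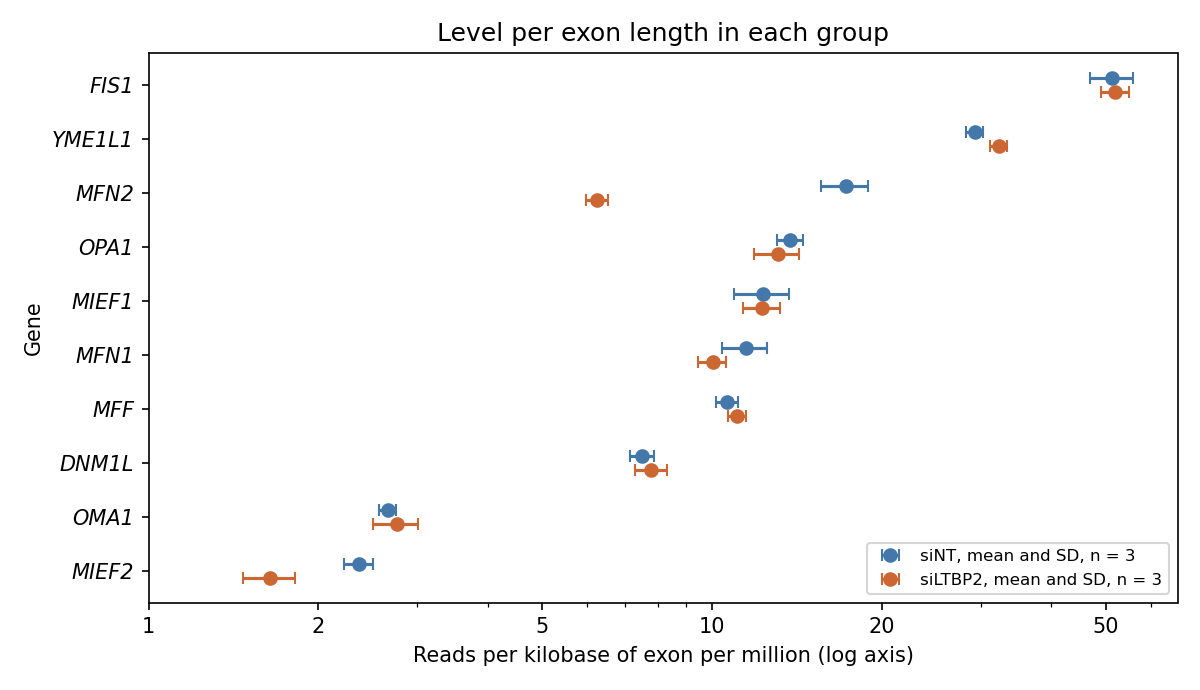
Level per summed exon length of each fusion and fission gene (horizontal axis, RPKM on a log axis) in siNT (blue) and siLTBP2 (orange), as mean and SD of 3 libraries, ordered by the siNT level. *MFN2* goes from 17.2 to 6.25 RPKM and *MIEF2* from 2.36 to 1.65 RPKM, while the other genes stay near their siNT level.

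Other genes that act on mitochondrial shape were read from the same fit. Of 24 such genes, 3 fell, 1 rose and 20 were not called, with a median log2 fold change of -0.00. Over all genes tested, 9.51% were called lower, 9.76% higher and 19.3% in either direction, and nothing is read from the count against these shares. *PGAM5*, a mitochondrial phosphatase that can dephosphorylate the fission GTPase and is itself cut by the protease PARL, was at 69.5, 67.0 and 78.7 CPM in siNT and at 21.2, 29.4 and 28.7 CPM in siLTBP2. It fell to 36.8% of siNT (log2 fold change -1.44, SE 0.13, adjusted p = 7.6e-05, edgeR's quasi-likelihood test), close to the 36.3% of *MFN2*. *GDAP1*, an outer membrane protein gene that is mutated in Charcot-Marie-Tooth disease as *MFN2* is, was at 7.74, 6.48 and 6.10 CPM in siNT and at 3.92, 3.13 and 2.52 CPM in siLTBP2.

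*GDAP1* thus fell by 1.09 on the log2 scale (SE 0.19, adjusted p = 0.0026, edgeR's quasi-likelihood test), and its 3′ UTR does not hold the word GCACCCA. *PARL*, the rhomboid protease of the inner membrane, was at 5.90, 5.91 and 6.32 CPM in siNT and at 3.28, 3.59 and 4.36 CPM in siLTBP2 (log2 fold change -0.69, SE 0.15, adjusted p = 0.011, same test). For these 3 genes the groups did not overlap, which 18.3% of all tested genes also showed in the lower direction. No single library, when omitted, removed any of their calls. *INF2*, a formin that assembles actin at sites of division, rose from 145 ± 7.18 to 174 ± 3.49 CPM (SD, n = 3; log2 fold change 0.26, SE 0.08, adjusted p = 0.043), but lost its call with any 1 library left out (0.23 to 0.29 on the log2 scale). *INF2* and *MTFP1*, a gene of inner membrane fission that was not called (log2 fold change -0.24, adjusted p = 0.70), also carry the word.

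**Figure D4:**
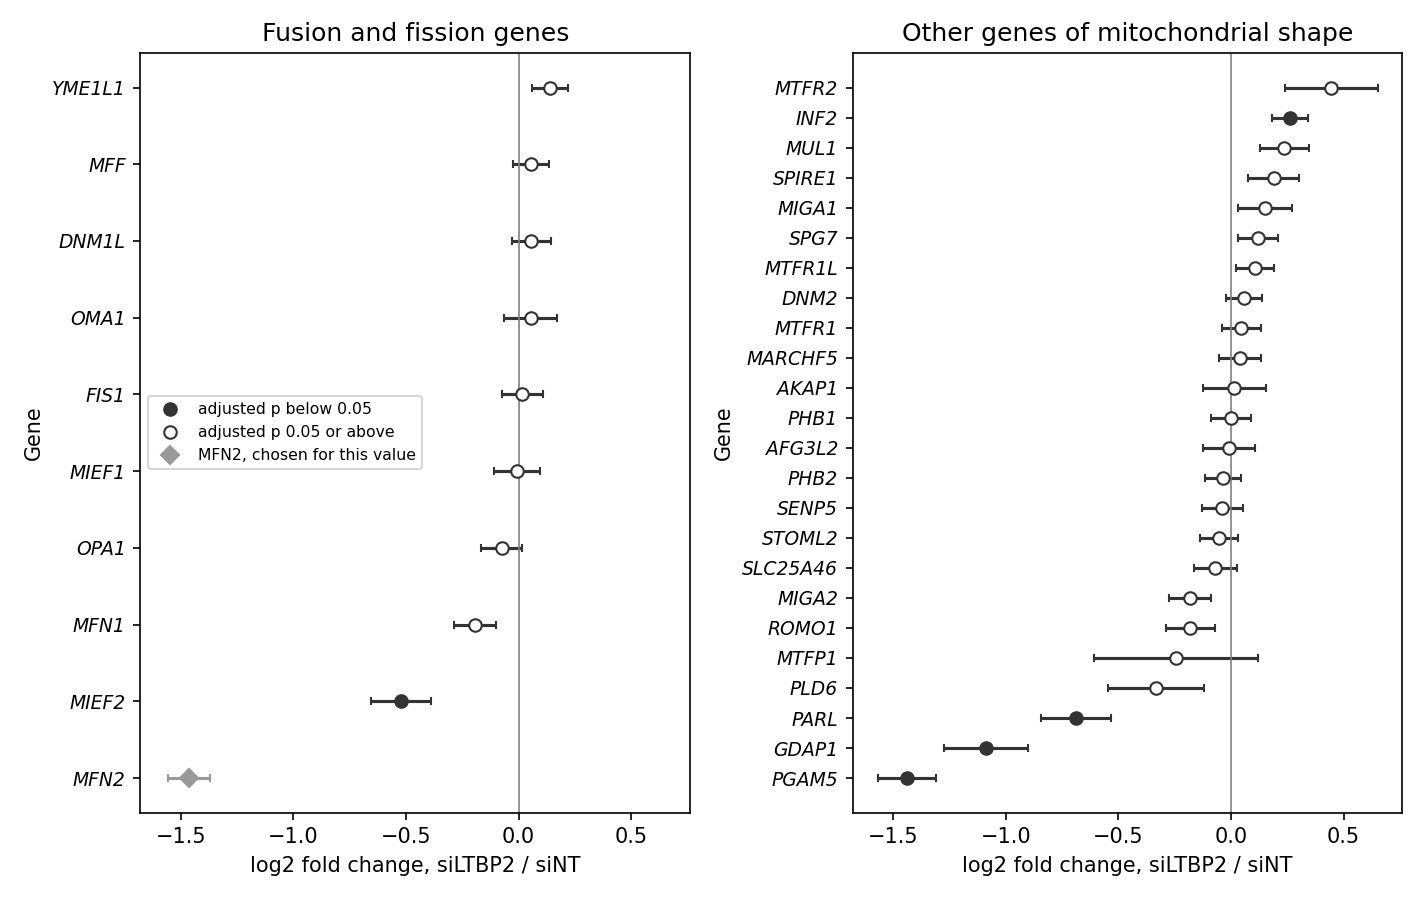
Log2 fold change of siLTBP2 over siNT with its standard error (horizontal axes) for the 10 fusion and fission genes on the left and the 24 other genes of mitochondrial shape on the right. Filled circles mark an adjusted p below 0.05, open circles one of 0.05 or above, and the grey diamond *MFN2*, which was chosen for this value. *PGAM5* (-1.44) lies about as low as *MFN2* (-1.46).

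Nearby mitochondrial pathways are given as counts, to be read beside the 19.3% of all tested genes that were called in either direction. Of 14 mitophagy genes tested, 2 rose and 2 fell. *BNIP3L*, a mitophagy receptor, went from 80.6 ± 12.4 to 137 ± 7.27 CPM and *PINK1*, the kinase that marks damaged mitochondria and whose pathway tags mitofusins for removal, from 69.3 ± 4.62 to 92.8 ± 0.98 CPM (SD, n = 3). *ULK1*, the kinase that starts autophagy, went from 42.2 ± 4.08 to 19.9 ± 4.08 CPM and *BCL2L13*, another receptor, from 102 ± 4.05 to 72.8 ± 6.69 CPM (SD, n = 3). The adjusted p in edgeR's quasi-likelihood test was 0.0011 for *BNIP3L*, 0.0052 for *PINK1*, 0.00071 for *ULK1* and 0.0039 for *BCL2L13*.

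Of 16 genes of contacts between mitochondria and the endoplasmic reticulum, where MFN2 also resides, 1 rose and 2 fell. *ITPR3*, a calcium release channel, rose by 0.66 on the log2 scale (adjusted p = 0.0059), while *PACS2*, a sorting protein, changed by -0.35 (adjusted p = 0.032, edgeR's quasi-likelihood test). *PACS2* lost its call without siNT replicate 1 or 3 or siLTBP2 replicate 1 or 2 (-0.40 to -0.28 on the log2 scale). Of 16 genes of mitochondrial biogenesis, *PPARGC1B*, a coactivator, changed by -1.04 (adjusted p = 0.0012), its partner *ESRRA* by -0.43 (adjusted p = 0.025) and *TFB1M*, a methyltransferase of mitochondrial ribosomal RNA, by 0.43 (adjusted p = 0.0096, same test). *ESRRA* lost its call without the same 4 libraries (-0.44 to -0.35).

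Of 14 genes of the stress relay from OMA1 through DELE1 to ATF4, 1 rose and 1 fell, with a median log2 fold change of 0.19. *DELE1*, whose product OMA1 cuts, changed by -0.42 (adjusted p = 0.0078) and *CHAC1*, an ATF4 target, by 0.53 (adjusted p = 0.0060, edgeR's quasi-likelihood test), while *ATF4* itself was at 0.38 (adjusted p = 0.063) and is named here after its value was seen. Of 37 nuclear genes of complex I, 5 fell and 0 rose, with a median of -0.11. They included *NDUFB1* (-0.56), *NDUFS7* (-0.43), *NDUFA5* (-0.40) and *NDUFA10* (-0.34 on the log2 scale), and the count was 1 without siLTBP2 replicate 2, 3 without siNT replicate 3 or siLTBP2 replicate 1, and 4 or 5 without each of the others.

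Of 16 import genes 1 fell, *TIMM17B* of the inner membrane translocase (log2 fold change -0.67, adjusted p = 0.0017, edgeR's quasi-likelihood test). Of 11 genes of MICOS and the cristae, *CHCHD6* was called lower (-0.44, adjusted p = 0.037), and of 10 transport genes *TRAK2* was called higher (0.24, adjusted p = 0.048), but each lost its call in every fit without 1 library. None of 10 genes of peroxisome fission and shape was called. Among 15 other genes of the dynamin superfamily and related GTPases, *ATL1* (-0.70) and *EHD4* (-0.30) were called lower and *ATL3* (0.43) higher, of which *EHD4* (adjusted p = 0.049) lost its call with RLE scaling and without any library other than siNT replicate 2.

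The genes whose profile over the 6 libraries was nearest to that of *MFN2* were taken from 10575 genes with a mean of at least 5 CPM, by the root mean square distance between log2 CPM values centred on each gene's mean. They were *ZNF768* (distance 0.076, log2 fold change -1.33), *MAP3K6* (0.11, -1.25), *PRKRA* (0.12, -1.36), *CHRM2* (0.12, -1.51) and *KCNAB2* (0.12, -1.47). They encode a zinc finger protein, a stress-activated kinase, an activator of the RNA-dependent protein kinase, a muscarinic acetylcholine receptor and a potassium channel subunit. None was a member of the family or of the other lists. Of the 5, 3 (*MAP3K6*, *PRKRA* and *CHRM2*) carry the word GCACCCA in the 3′ UTR, beside 11.8% of the 12314 tested genes described above. The word had been picked for lower carriers in these libraries, and the 5 genes for a fall like that of *MFN2*. A raised count of carriers is therefore built in and supports nothing about these genes. The distance covers only 6 libraries in 2 groups and says nothing of shared function or control.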

How the data were processed

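RNA from 3 siNT and 3 siLTBP2 samples was sequenced from stranded total RNA libraries. Per the labels, the authors converted reads with bcl2fastq, aligned them to GRCh38 with STAR 2.7.1a, counted them per gene with HTSeq 0.11.2 and deposited the raw counts without normalization. For the strand setting and the annotation release, no statement was found in the sources used here. The number of unused sample columns was 0. GENCODE 44 holds 60462 of the 60663 identifiers, 95.7% of them with an unchanged start.

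Counts were filtered with filterByExpr, normalized by TMM and tested with edgeR 4.0.16 in R 4.3.3 (glmQLFit and glmQLFTest, two-sided, no block). P-values were adjusted by Benjamini-Hochberg over all 16920 genes. The standard error was taken as the absolute log2 fold change over the root of the F statistic, and 95% intervals use the t distribution of that test. Lengths and UTRs come from GENCODE 44 and bases from the GRCh38 genome.

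The members and all lists were chosen with earlier results of these data known. Named genes were the members, *LTBP2*, called genes of each other list (at most 4 per list by absolute log2 fold change, all for the shape genes) and the 5 genes nearest to *MFN2*. The values of 1 gene that this rule names are not reported here. Libraries of one group differed by more than sampling noise (chi-square per degree of freedom 28.4 to 56.2). The steps were tested on simulated data for this comparison with 16958 genes run. Of the changed genes, 28% were called at a log2 fold change of 0.5, 94% at 1 and 100% at 1.5. Of all calls, 3.64% were false. Every simulated gene had the same dispersion (spread between libraries beyond sampling noise), without a replicate effect. These shares therefore need not hold for real genes, whose spread differs. Alternatives were the likelihood ratio test, DESeq2 1.42.0, other scalings and filters, a replicate block, a stricter threshold and leaving out each library, and other lengths or scalings for the levels. Alternatives for the other lists and for the levels were added later, after the data had been seen.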

Additional observations from a re-analysis of the deposited data

How the results depend on the processing

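*LTBP2*, *PGAM5*, *GDAP1* and *PARL* kept their direction and their call in every alternative fit, and *LTBP2* ranged from -1.89 to -1.61 on the log2 scale with 1 library left out. With 1 library left out, between 2158 (without siLTBP2 replicate 2) and 2781 genes were called, against 3261 with all libraries, and 1 to 2 members of the family, where *MIEF2* was lost without siNT replicate 1 or siLTBP2 replicate 1. With a 2-fold minimum and an adjusted p below 0.01, 434 genes and 1 member were called, *MFN2*, by which the family was chosen. Counts in the other lists also depended on the fit. With another test, scaling or filter or a replicate block, 2 to 8 genes of the stress relay and 5 to 13 of complex I were called in either direction. For the dynamin superfamily the count was 2 to 8, for the other shape genes 3 to 7 and for mitophagy 4 to 5. Members near 0 changed sign. *FIS1* was at -0.024 with total counts and between -0.022 and 0.091 with 1 library left out, *MIEF1* between -0.096 and 0.056, and *OMA1* between -0.025 and 0.11, and the cause was not tested. With canonical transcript lengths the level of all 10 members moved.

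With the replicate number as a block, 6131 genes were called (3109 higher and 3022 lower), and 3 members, *MFN1* being added (log2 fold change -0.19, adjusted p = 0.037, edgeR's quasi-likelihood test). The main fit had no block because the paper's methods describe none, so the missing call of *MFN1* depends on that choice. Deviations of libraries with the same number correlated at 0.30, 0.08 and 0.43. Those of siNT and siLTBP2 libraries with different numbers correlated between -0.39 and 0.10. The highest of these, siNT replicate 2 with siLTBP2 replicate 1, was just above the 0.08 of replicate 2 with its own number. The labels do not say whether the numbers mark a pairing. Depth limits the precision of genes with few counts, such as *MTFP1* (0.99 CPM in siNT, SE 0.36) and *CSF1R* (0.70 CPM, SE 0.26). Scaling moved the median of all genes to at most -0.04.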
